A study of Mus musculus with 19 samples.

Results

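Albumin (Alb) and 6 other genes for plasma carrier and binding proteins, Afm, Gc, Ttr, Ahsg, Fetub and Serpina6, were followed in mouse liver across a reproductive cycle. They are 7 of the 51826 gene entries measured, and all 7 were among the 16230 genes that averaged 0.1 TPM or more (TPM is transcript abundance scaled for length and for the total of the library). The 7 genes were chosen by name, from earlier results on the TPM of these same mice across the stages, so their stage values are given below as a description without p-values.

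The study asked how the liver changes through pregnancy, lactation and weaning, and its mouse arm sequenced liver mRNA. The mice were female Balbc animals, 12 weeks of age per the labels, with no genetic change or drug named, and flash frozen liver of 1 mouse made 1 library. The groups were nulliparous mice, which had not given birth (n = 7), mice on day 10 of lactation (n = 6) and mice on day 6 of involution, during the regression that follows weaning (n = 6). The study's methods name 2 suppliers of Balb/c mice, and the labels do not say which mouse came from which.

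Plasma carriers are made by hepatocytes and secreted into blood, where they hold poorly soluble or easily lost molecules. Albumin, the most abundant plasma protein, binds fatty acids, bilirubin and many drugs, afamin (Afm) binds vitamin E, and the vitamin D binding protein (Gc) carries vitamin D and its metabolites. Transthyretin (Ttr) carries thyroxine and, with retinol-binding protein, vitamin A. Fetuin-A (Ahsg) binds calcium phosphate, fetuin-B (Fetub) inhibits an egg protease that hardens the egg coat, and corticosteroid-binding globulin (Serpina6) carries glucocorticoids. Albumin and transthyretin are known as negative acute-phase proteins, whose plasma levels fall in inflammation.

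The values are TPM, which are per length, so levels of different genes can be compared. Read depth is unknown, since TPM keeps no counts, and no counting interval is given. Genes at 1 TPM or more numbered 11209 to 11797 per mouse. All 12 hepatocyte markers outside the 7 genes were detected, with summed levels of 28224 to 36554 TPM in nulliparous, 26741 to 34476 in lactating and 27004 to 29668 in involution mice. Mice are named here by group and animal number, as in the titles (NUL, LAC and ID6). The number splits the mice into 6 numbered under 200 (NUL_1, NUL_4, NUL_13, LAC_36, LAC_102 and LAC_133) and 13 numbered 200 and above, among them all 6 involution mice. These ranges stood apart in expression, so stage values of the 7 genes are given also for mice numbered 200 and above. Stage calls of the other gene lists used all mice, without the range in the fit. In any contrast of involution with the lower-numbered mice, the effects of stage and of range cannot be told apart. In bulk liver, fewer cells of a type and less RNA per cell cannot be told apart.

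Alb, Afm and Gc belong to 1 gene family on chromosome 5 (GRCm38, GENCODE M21). Alb (ENSMUSG00000029368) lies at chr5:90460897-90476602 and Afm (ENSMUSG00000029369) at chr5:90518932-90553543, both on the plus strand, with the family member Afp, the fetal alpha-fetoprotein gene, between them at chr5:90490737-90508907. Gc (ENSMUSG00000035540) lies at chr5:89417522-89457898 on the minus strand. Ahsg (ENSMUSG00000022868, chr16:22891277-22899449) and Fetub (ENSMUSG00000022871, chr16:22918334-22939778) are neighbours on the plus strand of chromosome 16. Serpina6 (ENSMUSG00000060807) is at chr12:103646630-103657212 on the minus strand. All 7 genes are annotated as protein-coding.

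RefSeq promoter sequence (GRCm38.p6) was matched for 5 of the 7 genes, Alb, Afm, Gc, Ahsg and Fetub, and the 250 bases before each start were searched on both strands. The stretches of Alb, Afm and Gc are shown because these 3 windows hold the 9 letters GTTAATNAT. The motif was picked after these windows had been looked at. Capitals mark the match, and each run is written 5′ to 3′ on the strand of the gene and ends before the annotated first base of the gene. The Alb run is chr5:90460720-90460869 on the plus strand, the Afm run chr5:90518799-90518931 on the plus strand and the Gc run chr5:89457899-89458048 on the minus strand.
Alb: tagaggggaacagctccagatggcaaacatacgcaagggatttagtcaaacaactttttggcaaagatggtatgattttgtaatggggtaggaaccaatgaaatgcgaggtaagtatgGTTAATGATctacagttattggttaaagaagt
Afm: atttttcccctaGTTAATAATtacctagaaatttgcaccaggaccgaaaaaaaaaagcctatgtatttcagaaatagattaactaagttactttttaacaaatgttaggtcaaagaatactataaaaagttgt
Gc: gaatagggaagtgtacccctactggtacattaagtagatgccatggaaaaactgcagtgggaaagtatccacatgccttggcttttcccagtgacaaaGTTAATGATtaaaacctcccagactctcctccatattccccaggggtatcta

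Counted in bases from the RefSeq start, the match began at -32 in Alb, at -138 in Afm and at -52 in Gc, and Afp held one at -105. The Ahsg and Fetub windows held no such match. Of 32851 promoter windows of the same length, 242 (0.737%) held the motif. Its shorter form GTTAAT, which is contained in it, was in 6.43% of windows, and among the 5 genes it was in the same 3. The CCAAT motif, held by 33.8% of windows, was in those of Alb, Afm, Gc and Fetub, and TTGCNNAA, a C/EBP-like motif held by 9.56%, was in those of Alb and Ahsg. These are letter matches and no factor binding was measured.

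The 10 genes with the highest mean level were Alb, mt-Atp8, Apoe, Apoa2, Apoc1, Trf, mt-Co1, Fabp1, Apoa1 and mt-Co2. Alb ranked first among all genes in 14 of the 19 mice and second in the other 5, with a mean of 71729 TPM over the 19 mice. Ahsg (mean 7461 TPM, rank 10 to 26), Ttr (7055 TPM, rank 9 to 34) and Gc (4610 TPM, rank 22 to 36) came next. Serpina6 (336 TPM, rank 158 to 736), Fetub (326 TPM, rank 295 to 505) and Afm (324 TPM, rank 333 to 499) formed the lowest tier. Alb was above the other 6 genes in every mouse, and Ahsg was above Gc in every mouse. Neighbours within a tier were not separated by stage means alone, since Ttr exceeded Ahsg in 2 of 7 nulliparous, 1 of 6 lactating and 4 of 6 involution mice, and Afm exceeded Serpina6 in 3 of 7, 3 of 6 and 3 of 6. Gc was below Ttr in all nulliparous and involution mice and above it in 3 of 6 lactating mice, those numbered under 200.

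**Figure D1:**
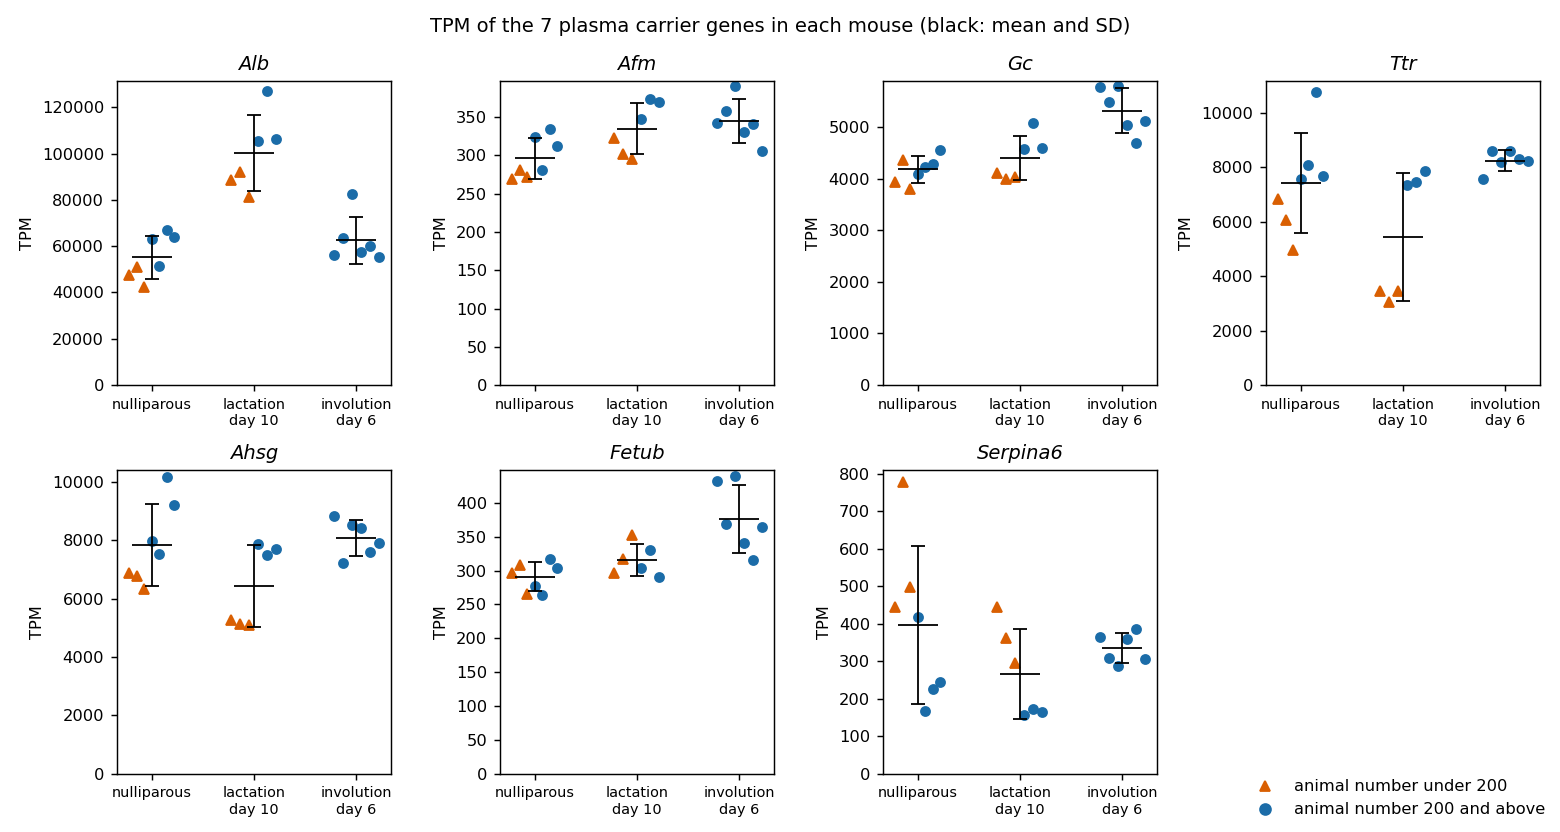
TPM of each of the 7 genes on a linear axis from 0, by stage, with 1 symbol per mouse (orange triangles for animal numbers under 200, blue circles for 200 and above) and the mean with SD in black. Alb lies between 81145 and 127179 TPM in the lactating mice, above all nulliparous mice, and the triangles of Ttr lie at 3061 to 3451 TPM in lactation against 7338 to 7868 for the circles.

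Alb ranged from 42481 to 66970 TPM in nulliparous mice (median 51260), from 81145 to 127179 on day 10 of lactation (median 98898) and from 55316 to 82593 on day 6 of involution (median 58829). All 6 lactating mice were above all 7 nulliparous mice, and 5 of the 6 involution mice were below all lactating mice. The exception was ID6_216 at 82593 TPM, just above LAC_133 at 81145. Means were 55208 ± 9427 (SD, n = 7), 100197 ± 16461 (SD, n = 6) and 62534 ± 10276 TPM (SD, n = 6). The ratio of means was 1.81 for lactation over nulliparous and 0.624 for involution over lactation. Differences in log2(TPM + 1) were 0.86 ± 0.15 (SE) and -0.68 ± 0.16, and involution stood 0.18 ± 0.15 above nulliparous mice.

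The Alb difference was seen within each range of animal number. Under 200, NUL_1, NUL_4 and NUL_13 had 47538, 51018 and 42481 TPM, and LAC_36, LAC_102 and LAC_133 had 88724, 92148 and 81145. At 200 and above, NUL_220, NUL_221, NUL_226 and NUL_227 had 63260, 51260, 66970 and 63932 TPM, and LAC_200, LAC_213 and LAC_240 had 105649, 127179 and 106338. The groups did not overlap in either range, and at 200 and above all involution mice lay below all lactating mice. The log2 difference at 200 and above was 0.88 ± 0.19 (SE) for lactation minus nulliparous, -0.86 ± 0.18 for involution minus lactation and 0.02 ± 0.16 for involution minus nulliparous. Quantile normalization, which gives the top-ranked gene of every mouse nearly the same value by construction, left a log2 difference of 0.20 in lactation.

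The other family members moved over smaller ranges. Afm had 269 to 335 TPM in nulliparous mice (median 281), 295 to 374 on day 10 of lactation (median 335) and 306 to 391 on day 6 of involution (median 342), with means of 296 ± 26.9 (SD, n = 7), 335 ± 33.8 (SD, n = 6) and 345 ± 28.5 TPM (SD, n = 6). The stages overlapped for Afm, although within each range of animal number every lactating mouse was above every nulliparous mouse. Gc had 3810 to 4561 TPM in nulliparous mice (median 4237), 3989 to 5073 on day 10 of lactation (median 4347) and 4699 to 5795 on day 6 of involution (median 5306), with means of 4185 ± 258 (SD, n = 7), 4397 ± 425 (SD, n = 6) and 5320 ± 438 TPM (SD, n = 6). Every involution mouse was above every nulliparous mouse for Gc. Its log2 difference of involution minus nulliparous was 0.34 ± 0.08 (SE), and 0.31 ± 0.08 among mice numbered 200 and above. Afm at involution differed from lactation by a log2 of 0.04 ± 0.08, which changed sign among mice numbered 200 and above (-0.08 ± 0.08) and under median-ratio scaling of the mice (-0.11).

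Ttr (ENSMUSG00000061808, chr18:20665280-20674321 on the plus strand), the thyroxine carrier, had 4951 to 10779 TPM in nulliparous mice (median 7554), 3061 to 7868 on day 10 of lactation (median 5394) and 7567 to 8592 on day 6 of involution (median 8260). The means were 7422 ± 1830 (SD, n = 7), 5437 ± 2334 (SD, n = 6) and 8245 ± 374 TPM (SD, n = 6). The lactating mice fell into 2 clusters. LAC_36, LAC_102 and LAC_133 had 3436, 3061 and 3451 TPM, while LAC_200, LAC_213 and LAC_240 had 7338, 7466 and 7868, inside the range of the nulliparous mice. The log2 difference of lactation minus nulliparous was -0.53 ± 0.22 (SE) over all mice, -0.83 ± 0.15 under 200 and -0.16 ± 0.14 at 200 and above. Involution minus lactation was 0.72 ± 0.23 over all mice and 0.13 ± 0.11 at 200 and above, so the lower-numbered lactating mice set most of that value.

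The 2 fetuins, though neighbours on chromosome 16, differed in pattern. Ahsg had 6310 to 10154 TPM in nulliparous mice (median 7508), 5078 to 7875 on day 10 of lactation (median 6378) and 7217 to 8836 on day 6 of involution (median 8145). Its lactating mice also split by number, with 5276, 5117 and 5078 TPM in LAC_36, LAC_102 and LAC_133 against 7875, 7480 and 7712 in LAC_200, LAC_213 and LAC_240. The log2 difference of lactation minus nulliparous was -0.29 ± 0.14 (SE) over all mice and -0.17 ± 0.12 at 200 and above. Fetub had 265 to 318 TPM in nulliparous mice (median 297), 290 to 353 on day 10 of lactation (median 310) and 315 to 440 on day 6 of involution (median 366). Its involution mean of 377 ± 50.0 TPM (SD, n = 6) stood above the nulliparous mean of 291 ± 21.4 (SD, n = 7), with only the lowest involution mouse (315 TPM) inside the nulliparous range. That log2 difference was 0.37 ± 0.08 over all mice and 0.37 ± 0.10 at 200 and above.

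Serpina6, the glucocorticoid carrier, varied most. It had 167 to 779 TPM in nulliparous mice (median 418), 156 to 444 on day 10 of lactation (median 234) and 288 to 386 on day 6 of involution (median 334), and its highest mouse was 5.0 times its lowest, against 3.52 for Ttr, 2.99 for Alb and 1.45 for Afm. NUL_1, NUL_4 and NUL_13 had 445, 779 and 499 TPM, and NUL_220, NUL_221, NUL_226 and NUL_227 had 418, 167, 225 and 244. LAC_36, LAC_102 and LAC_133 had 444, 362 and 297 TPM, and LAC_200, LAC_213 and LAC_240 had 156, 172 and 165. Over all mice the stages overlapped, with a log2 difference of lactation minus nulliparous of -0.53 ± 0.31 (SE). At 200 and above that difference was -0.60 ± 0.22, and involution lay above lactation in every mouse with a log2 difference of 1.02 ± 0.21 and a ratio of means of 2.04.

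As a share of all TPM, the 7 genes together held 7.56% ± 1.24 (SD, n = 7) in nulliparous mice, 11.7% ± 2.00 (SD, n = 6) on day 10 of lactation and 8.52% ± 1.07 (SD, n = 6) on day 6 of involution. Per mouse this was 5.86 to 9.31% (median 7.18), 9.47 to 14.8% (median 11.6) and 7.75 to 10.6% (median 8.12). Every lactating mouse was above every nulliparous mouse. Alb alone held 5.52% ± 0.943, 10.02% ± 1.65 and 6.25% ± 1.03, while the other 6 genes held 2.04% ± 0.319, 1.72% ± 0.401 and 2.27% ± 0.0759. The mean combined share differed by 4.17 percentage points for lactation minus nulliparous and by -3.21 for involution minus lactation. Among mice numbered 200 and above, the combined share at involution was 0.637 times that in lactation, with no overlap.

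**Figure D2:**
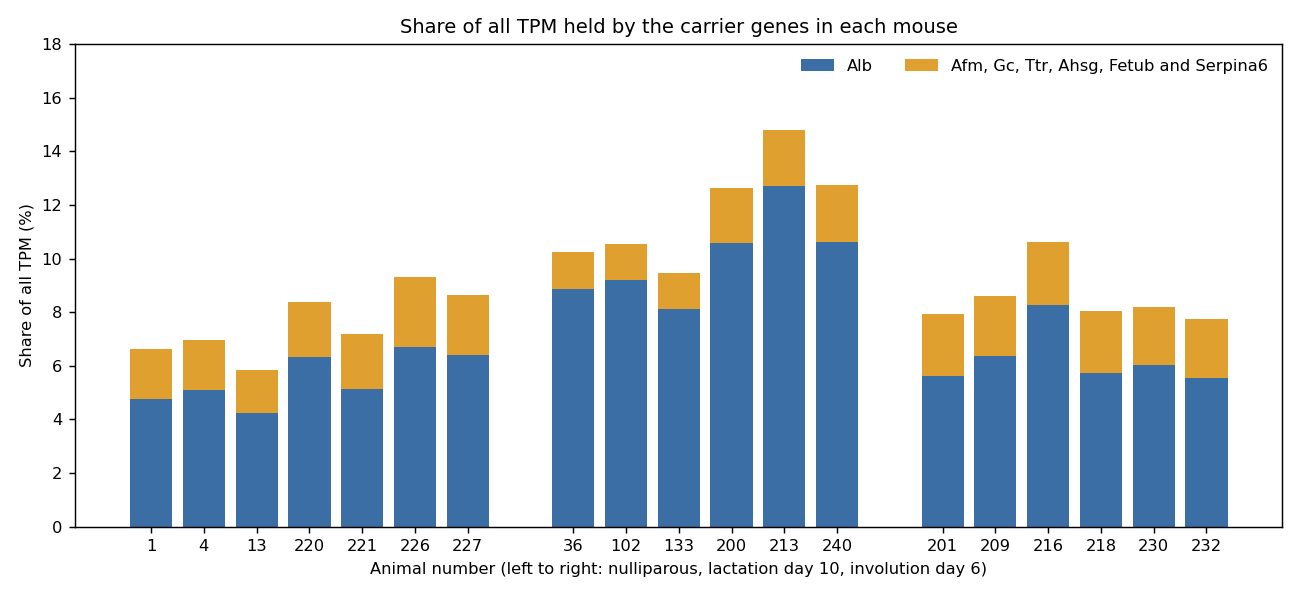
Stacked bars give the percent of all TPM held by Alb (blue) and by the other 6 genes (orange) in each of the 19 mice, with animal numbers on the horizontal axis. The lactating mice reach 9.47 to 14.8% in total, and the orange part stays between 1.31 and 2.61% in all mice.

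Ratios within a mouse do not depend on the TPM total. Alb per Gc was 11.1 to 15.6 in nulliparous mice, 20.1 to 25.1 in lactation and 9.72 to 14.3 at involution. Alb per Afm was 156 to 205, 275 to 340 and 164 to 211. For Alb per Ahsg the values were 6.60 to 7.94, 13.4 to 18.01 and 6.35 to 9.71, and for Alb per Ttr they were 6.21 to 8.58, 13.5 to 30.1 and 6.69 to 10.1. In all 4 ratios the lactating mice lay above every mouse of the other stages, ID6_216 included. Alb per Ttr split within lactation, at 23.5 to 30.1 in mice numbered under 200 and 13.5 to 17.0 in the others. These ratios are made of the values that chose the genes and were not tested.

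**Figure D3:**
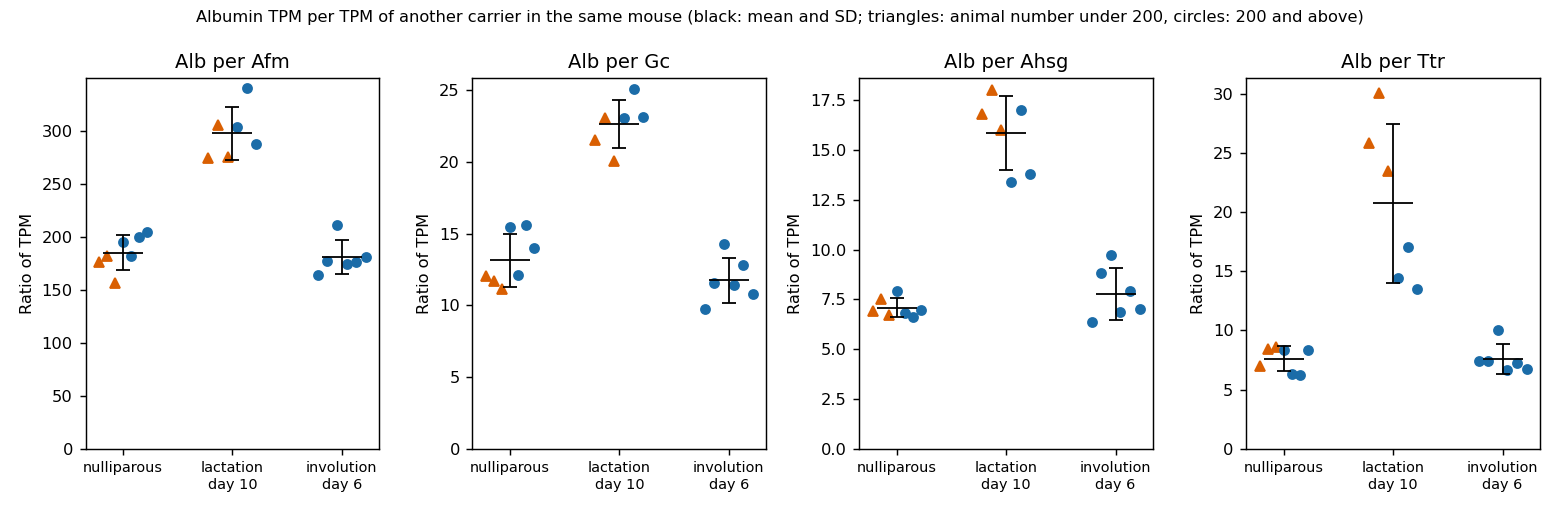
Alb TPM divided by the TPM of Afm, Gc, Ahsg or Ttr in the same mouse, by stage, on linear axes from 0, with triangles for animal numbers under 200, circles for 200 and above, and mean with SD in black. Lactating mice lie at 20.1 to 25.1 for Alb per Gc, against 9.72 to 15.6 in all other mice.

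Across the 3 stages, calls were made with limma-trend on log2(TPM + 1) at a Benjamini-Hochberg adjusted p under 0.05 over all 16230 genes. The stage comparisons chose the genes, so the counts are given beside the share of all genes called and nothing is read from them. The comparisons share mice, since each stage enters 2 of them. In lactation against nulliparous mice, 1 of 7 was called, Alb higher, where 2.72% of all genes were called higher and 6.49% lower. In involution against lactation, Gc, Ttr and Fetub were called higher and Alb lower, 4 of 7, beside 18.1% higher and 4.73% lower among all genes. In involution against nulliparous mice, Gc and Fetub were called higher, 2 of 7, beside 3.44% and 0.912%. No log2 difference of the 7 genes reached 1 in size in these comparisons over all mice, a fold that 0.746%, 1.93% and 0.253% of all genes passed together with the adjusted p. The median log2 difference of the 7 was 0.07, 0.28 and 0.19, against -0.03, 0.10 and 0.07 over all genes tested. Under median-ratio scaling the calls at involution against lactation went from 3 higher and 1 lower to Alb lower alone, and those against nulliparous mice went from 2 to 0.

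The division of all tested genes into higher and lower calls moved with the scaling, and Alb alone held up to 12.7% of the total of a mouse. In lactation against nulliparous mice, 441 genes were called higher and 1053 lower, so 29.5% of calls were higher. With the 7 genes left out of the TPM total this share was 48.3% (575 higher, 615 lower), and with median-ratio scaling it was 45.6%. In involution against lactation the share of higher calls was 79.3%, 69% without the 7 genes in the total and 52% with median-ratio scaling, and in involution against nulliparous mice it was 79.1%, 78.8% without the 7 genes in the total and 42.7% with median-ratio scaling.

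**Figure D4:**
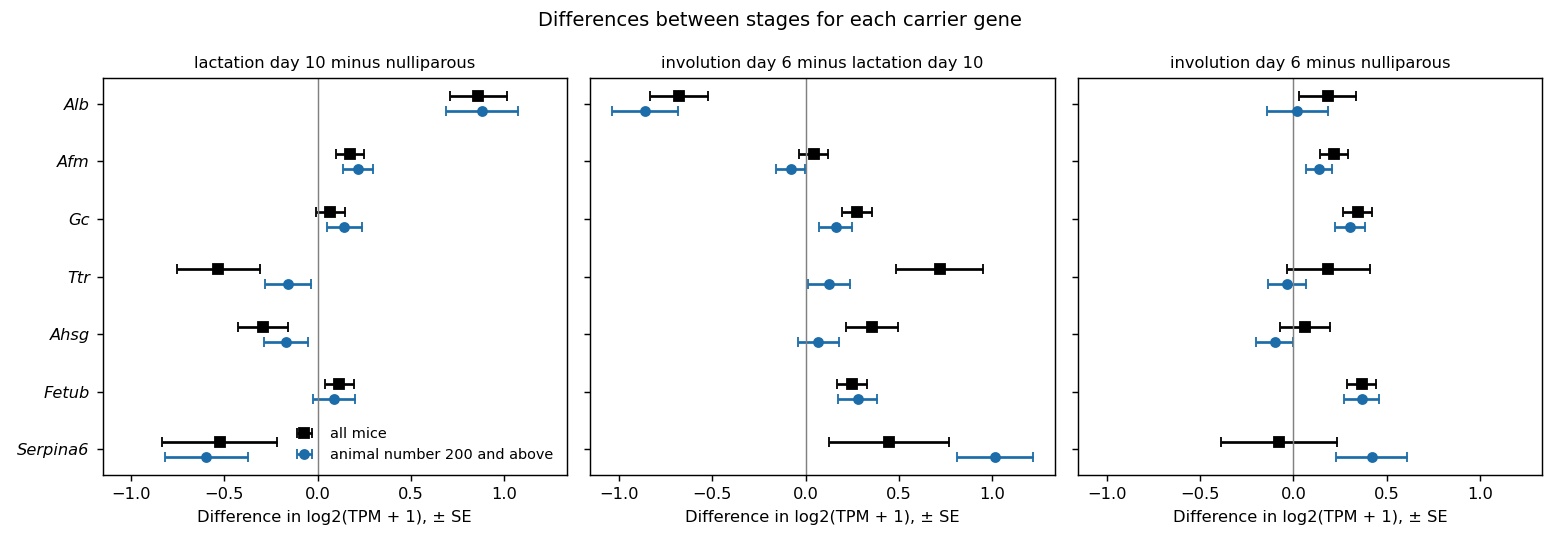
Difference in log2(TPM + 1) with SE for each of the 7 genes in the 3 stage comparisons, for all 19 mice (black squares) and for the 13 mice numbered 200 and above (blue circles). Alb is at 0.86 and 0.88 in lactation minus nulliparous, while Ttr goes from -0.53 to -0.16 and, in involution minus lactation, from 0.72 to 0.13.

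The rule that chose the genes named no range of animal number, but they were chosen with earlier results of these same mice known. The p-values for range and for its interaction with stage therefore cannot be taken as independent of that choice. The range was tested in the 13 nulliparous and lactating mice with stage in the fit. Ttr, Ahsg, Alb and Afm were higher and Serpina6 lower in mice numbered 200 and above, 5 of 7 genes, where 16.5% of all genes were called higher and 9.11% lower. For Ttr the log2 difference was 0.83 ± 0.14 (SE), with an adjusted p of 0.000875 (limma-trend), and its mean was 1.43 times higher in nulliparous and 2.28 times higher in lactating mice. For Serpina6 it was -1.15 ± 0.19, with an adjusted p of 0.000866 (limma-trend), and means at 200 and above were 0.459 and 0.447 of those under 200. Ahsg differed by 0.47 ± 0.08, adjusted p = 0.00124 (limma-trend). Afm differed by 0.22 ± 0.05, adjusted p = 0.00580, and Alb by 0.38 ± 0.12, adjusted p = 0.0354 (limma-trend). Gc (0.15 ± 0.06, adjusted p = 0.0856) and Fetub (-0.03 ± 0.06, adjusted p = 0.784) did not pass (limma-trend). The median over the 7 was 0.22, against 0.05 over all genes.

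Those 5 genes did not overlap between ranges, in the same direction, in nulliparous or in lactating mice, as was true of 13.2% of all genes tested. Gc did not overlap in lactation only, and Fetub overlapped in both stages. Within the fit of the 13 mice, Ttr, Ahsg and Serpina6 passed in nulliparous mice (3 of 7) and the same genes and Afm in lactating mice (4 of 7). When each stage was fitted alone, only Serpina6 passed in nulliparous mice, and Ttr, Ahsg and Serpina6 in lactating mice (limma-trend). The share of all genes called was not counted for these comparisons within a stage, so nothing is read from their counts. Under median-ratio scaling Ttr (0.75), Ahsg (0.39) and Serpina6 (-1.23) passed, while Alb (0.29, adjusted p = 0.207) and Afm (0.13, adjusted p = 0.110) kept their sign and did not pass (limma-trend). Alb did not pass under quantile normalization (0.25, adjusted p = 0.171) or without mitochondrially encoded genes in the total (0.34, adjusted p = 0.0738) either, so its call was lost under 3 of 4 other scalings (limma-trend). The sign of Fetub was negative as reported and under median-ratio scaling and positive under quantile normalization (0.05). Gc passed with the 7 genes left out of the total (0.20, adjusted p = 0.0420, limma-trend).

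**Figure D5:**
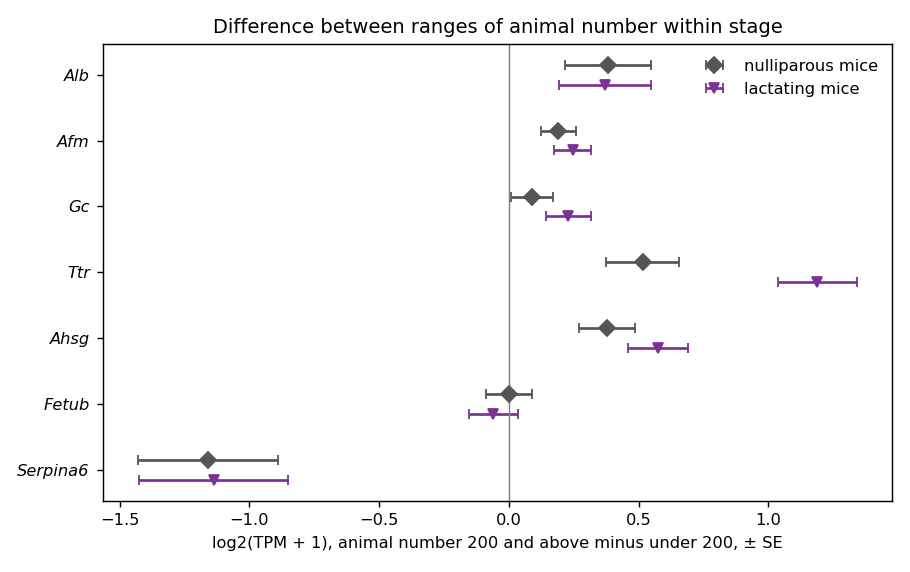
Difference in log2(TPM + 1) with SE between animal numbers of 200 and above and under 200, for each of the 7 genes in nulliparous mice (grey diamonds) and lactating mice (purple triangles). Ttr is at 0.52 in nulliparous and 1.19 in lactating mice, and Serpina6 is at -1.16 and -1.14.

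Whether the lactation difference itself depended on the range was tested by an interaction term. None of the 7 passed (limma-trend, 0 of 7 at an adjusted p under 0.05, 1 of 7 at an unadjusted p under 0.05), where 0.111% of all genes did. The one gene with a low unadjusted p was Ttr, with an interaction of 0.67 ± 0.21 (SE) on the log2 scale and an adjusted p of 0.226 (limma-trend). For Alb the interaction was -0.01 ± 0.24, and for Serpina6 it was 0.02 ± 0.39. A difference between ranges in the lactation response of Ttr was thus not shown at this number of mice.

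Marker lists held calls in these comparisons, and their part in the differences of the 7 genes was not tested. These and the later lists were chosen with earlier results of these data known, and many genes were named for a small adjusted p. Their p-values are given as a description, not as an independent test. The shares of all genes called, for these and the later lists, were 2.72% higher and 6.49% lower in lactation. They were 18.1% and 4.73% at involution against lactation, and 16.5% and 9.11% at 200 and above. Summed Kupffer cell and other leukocyte markers were 225.7 to 407 TPM in nulliparous, 146 to 285 in lactating and 491 to 663 in involution mice, with 8 of 11 tested genes lower in lactation (3 of 11 with the 7 carrier genes left out of the total) and 10 of 11 higher at involution than in lactation. Between the ranges, 7 of the 11 were higher at 200 and above (4 with median-ratio scaling). None of these markers was listed at 0 in all mice of a stage. Red blood cell markers summed to 1144 to 2408, 1331 to 3336 and 197 to 847 TPM, with 5 of 5 tested genes lower at involution than in lactation. The hepatocyte list had 1 gene lower in lactation (Cyp2e1), 1 higher and 2 lower at involution, and 1 higher and 4 lower at 200 and above. Their sum had a mean of 36067 TPM under 200 against 30038 in nulliparous mice, and of 33941 against 27573 in lactation. That sum is weighted to its most abundant genes, and single markers moved both ways. Between ranges Fabp1 differed by -0.64 ± 0.10 (SE) and Glul by 0.34 ± 0.09. The median log2 difference over this list was -0.13, against 0.05 over all genes. Endothelial markers had 2 of 8 lower in lactation and 5 of 8 higher at involution. For stellate cell and fibroblast markers these counts were 3 of 8 and 2 of 8, and for cholangiocyte markers 1 of 5 and 1 of 5.

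The acute-phase list is set beside the 7 genes because albumin and transthyretin are known to respond in the opposite direction to it. Of 20 positive acute-phase genes, 6 fell in lactation, the 4 serum amyloid genes Saa1 to Saa4, the iron hormone gene Hamp and Steap4, and none rose (unadjusted, 12 lower and 0 higher). At involution 14 of 20 rose relative to lactation and 0 fell (10 and 0 with median-ratio scaling). Saa3 went from 4.68 ± 3.99 TPM (SD, n = 6) in lactation to 91.3 ± 31.3 (SD, n = 6) at involution, and Hpx, the heme carrier hemopexin, from 2483 ± 490 to 5634 ± 1470. The log2 differences were 4.28 ± 0.47 (SE, adjusted p = 7.09e-06) and 1.17 ± 0.20 (adjusted p = 0.000315), both by limma-trend. Between the ranges, 10 of 20 were higher and 2 lower at 200 and above, where Alb, Afm, Ttr and Ahsg were also higher and Serpina6 was lower. Between stages, Ttr had the direction of the list, with log2 differences of -0.53 in lactation and 0.72 at involution against lactation. Among mice numbered 200 and above these were -0.16 and 0.13. Those of Alb over all mice, 0.86 and -0.68, were opposite to the list. Ahsg (-0.29 and 0.36) and Serpina6 (-0.53 and 0.45) also had the direction of the list over all mice. Afm, Gc and Fetub were above 0 in both comparisons. A link between the list and the 7 genes was not tested. The summed list was 17163 to 34236, 11104 to 19183 and 27793 to 38103 TPM across the stages. In lactation it was 11104 to 13797 TPM under 200 and 16449 to 19183 at 200 and above.

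Other carriers and binding proteins were compared through a list of 20, of which 18 were tested. In lactation Afp and Pltp rose and Serpina7 fell, with a median log2 difference of -0.15 over the list against -0.03 over all genes. Pltp, the phospholipid transfer protein, went from 16.8 ± 6.05 TPM (SD, n = 7) to 55.8 ± 13.5 (SD, n = 6), a log2 difference of 1.71 ± 0.20 (SE, limma-trend adjusted p = 6.16e-05). Afp, the Alb neighbour, went from 2.33 ± 0.562 to 5.31 ± 1.51 TPM, a log2 difference of 0.90 ± 0.17 (SE, limma-trend adjusted p = 0.00226), far below the level of Alb. Serpina7, thyroxine-binding globulin, went from 28.0 ± 7.68 to 16.1 ± 7.72 TPM, a difference that did not pass under 3 of 4 other scalings. At involution against lactation 5 rose, among them Hpx and Hp, which bind heme and hemoglobin, and Ambp, the precursor of alpha-1-microglobulin and bikunin, and 3 fell, Afp, Apom and Pltp.

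Between the ranges of animal number, 9 of the 18 were higher and 4 lower at 200 and above, and 5 and 4 with median-ratio scaling. Igfbp2, which binds insulin-like growth factors, was at 517 ± 146 TPM (SD, n = 3) in nulliparous mice under 200 against 141 ± 30.4 (SD, n = 4), and at 673 ± 39.7 (SD, n = 3) against 224 ± 34.3 (SD, n = 3) in lactation. Its log2 difference of -1.73 ± 0.15 (SE, limma-trend adjusted p = 4.06e-06) had the direction of Serpina6. Apom, the carrier of sphingosine 1-phosphate, differed by -0.52 ± 0.07 (SE, limma-trend adjusted p = 0.000316), and Rbp4, the retinol partner of Ttr, by -0.23 ± 0.07 (SE, limma-trend adjusted p = 0.0248), against the direction of Ttr. Without the 7 genes in the total, and under quantile normalization, Rbp4 did not pass.

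Receptors, enzymes and partners for the carried ligands were a list of 20, with 17 tested. Dio1, the deiodinase that activates and clears thyroid hormone, fell in lactation from 56.6 ± 17.9 TPM (SD, n = 7) to 3.44 ± 3.49 (SD, n = 6) and was 39.0 ± 11.8 (SD, n = 6) at involution. Its level in lactation also split by animal number, 0.587 ± 0.0702 TPM (SD, n = 3) under 200 against 6.29 ± 2.47 (SD, n = 3), as Ttr did. Cyp2r1, the vitamin D 25-hydroxylase, went the other way, from 5.39 ± 0.960 to 9.56 ± 1.38 and 4.59 ± 1.02 TPM. Both passed in lactation against nulliparous mice (limma-trend adjusted p of 7.49e-06 for Dio1 and 0.00137 for Cyp2r1).

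At involution against lactation, 6 of the 17 rose and 4 fell, and 2 and 4 with median-ratio scaling. Those that rose included Dio1, Fcgrt, the receptor that recycles albumin and IgG, the transporter Slc16a10, the glucocorticoid receptor Nr3c1 and Hsd11b1, which regenerates active glucocorticoid. Fcgrt was 149 ± 12.99 TPM (SD, n = 6) in lactation and 188 ± 29.7 (SD, n = 6) at involution, a log2 difference of 0.32 ± 0.11 (SE, limma-trend adjusted p = 0.0486) that did not pass under the 4 other scalings. Hsd11b1 went from 628 ± 44.1 to 742 ± 32.6 TPM, a log2 difference of 0.24 ± 0.06 (SE, limma-trend adjusted p = 0.00816) that did not pass under median-ratio scaling. Nr3c1 did not pass under the 4 other scalings, and Slc16a10 did not under median-ratio scaling. The 4 that fell were Srd5a1, Cyp2r1 and the fatty acid handling genes Cd36 and Fabp1. The fall of Cd36 did not pass without mitochondrially encoded genes in the total. In lactation Cd36 was at 123 ± 12.0 TPM (SD, n = 3) under 200 against 41.1 ± 5.81 (SD, n = 3) at 200 and above. Cd36 was also lower at 200 and above by -1.66 ± 0.13 (SE, limma-trend adjusted p = 2.03e-06), as were Fabp1, Akr1d1, Cyp27a1 and Rbp4, while Dio1 and Thra were among those higher. Thra did not pass under median-ratio scaling, under quantile normalization or without mitochondrially encoded genes in the total. Cyp27a1 did not pass under quantile normalization or with the 7 genes left out of the total.

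Of 20 transcription factors known at liver promoters, none was called in lactation against nulliparous mice (limma-trend, 0 of 20, and at an unadjusted p under 0.05, 2 higher and 1 lower), although 1 was higher with the 7 genes left out of the total. At involution Cebpd, Nfil3 and Nfix rose relative to lactation, 3 of 20 where 18.1% of all genes were called higher. Cebpd did not pass under 4 other scalings. Median-ratio scaling gave 2 higher and 3 lower there, and quantile normalization 2 and 2. Between the ranges, Hnf4a, Cebpa, Foxa3, Nfil3, Nfic and Nfix were higher and Nr5a2 lower at 200 and above, and 4 of these 7 did not pass under median-ratio scaling. Nfic had the largest of these differences, 0.74 ± 0.16 (SE, limma-trend adjusted p = 0.00407).

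The 7 genes did not form a single pattern over the 19 mice. Pearson's r of log2(TPM + 1), given as a description over points that share stage, range and TPM total, was 0.927 for Ttr with Ahsg, 0.815 for Gc with Fetub and 0.653 for Alb with Afm. After centring each stage and range on its own mean, these were 0.436, 0.806 and 0.835. Alb with Ttr was -0.197, and 0.225 after centring. Serpina6 had an r below 0 with each of the others except Fetub (0.011).

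Among the 5658 other genes that averaged 10 TPM or more, those most like Alb were Dtnb (r = 0.927), Acsl4 (0.913) and Pltp (0.885), with 0.774, 0.502 and 0.083 after centring. Closest to Gc were Cpb2 (0.947), the ribosomal protein gene Rps3a1 (0.935) and the coagulation factor gene F10 (0.930), and closest to Ttr were Mup3 (0.944), Enho (0.937) and Fam25c (0.930). After centring, the 3 of Ttr were at 0.277, 0.241 and 0.429, and the 3 of Gc at 0.813, 0.778 and 0.831. Ahsg was most like F11, Enho and Lgals3bp (0.930, 0.920 and 0.914), Afm most like Iah1, Nme6 and Vcpkmt (0.884, 0.879 and 0.865), Fetub most like Lmf1, Cpb2 and Serpinf1 (0.794, 0.788 and 0.773) and Serpina6 most like Echs1, Slc22a18 and Fdx1 (0.899, 0.874 and 0.852).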

How the data were processed

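Liver mRNA of 19 mice (7 nulliparous, 6 lactation day 10, 6 involution day 6) was analysed, with 1 column per mouse and groups taken from the labels. The deposited values are TPM per gene. According to the methods and the labels' processing notes, the authors aligned reads to GRCm38, and gene-level TPM came from RSEM 1.3.1. The aligner is not given in the sources used here. Columns summed to 999999.3 to 1000001.14, and depth is unknown. Here log2(TPM + 1) of 16230 genes averaging 0.1 TPM or more was fitted with limma-trend (limma 3.58.1, R 4.3.3), with Benjamini-Hochberg adjustment over these genes, in 1 fit of all mice for stages and in the 13 nulliparous and lactating mice for animal-number range and its interaction with stage. The fits were tested on simulated data. The 7 genes, the gene lists and the motif were chosen with earlier results of these data known. Named genes were the 7, up to 4 called genes per list with the smallest adjusted p, all called regulators and ligand partners, the 10 with the highest mean and the 3 most correlated with each of the 7. Where a small set of calls is listed whole, names beyond 4 were added after their values were seen. Some listed genes are not reported here. Promoters are from RefSeq. Nothing says that mice share a litter or batch, and p-values set a difference against the spread between these mice. In the stage fit that spread includes any difference between animal-number ranges. Alternatives were other pseudocounts, filters and scalings, only the 2 groups compared, robust moderation, the range as covariate or restriction, and each mouse left out.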

Additional observations from a re-analysis of the deposited data

Results flagged for a closer look

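Albumin in ID6_216 stood apart from the other 5 mice on day 6 of involution, at 82593 TPM of Alb where the second highest had 63540, which is 0.698 of the spread from lowest to highest. The combined share of all TPM held by the 7 genes stood apart in the same mouse, 10.6% where the second highest had 8.59% (0.710 of the spread), and Alb makes up most of that share. Of 24 groups of 6 or 7 mice examined, 2 passed Dixon's limit, and chance alone passes about 1 in 20. Its Alb level lay inside the range of the lactating mice, while its Alb per Gc of 14.3 lay below all of them. Leaving out any 1 mouse, this one included, gave a log2 difference of Alb for involution minus lactation of -0.76 to -0.61.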

How the results depend on the processing

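Without a filter on low values, the number of the 7 genes called was 0 in lactation against nulliparous mice, 2 in involution against lactation and 1 in involution against nulliparous mice, where 1, 4 and 2 were called as reported. Among all 26140 genes then tested, 1219, 3271 and 367 were called, against 1494, 3703 and 707 of 16230 as reported. Median-ratio scaling gave 1 (Alb) in involution against lactation, 0 in involution against nulliparous mice and 3 between animal-number ranges, where 5 were called. In those stage comparisons it called 2628 and 396 of all 16234 genes. Quantile normalization, which fixes the top-ranked gene by construction, gave 0 in lactation and 2 in involution against lactation, where 1495 and 2845 of all 16230 genes were called. With the 7 genes left out of the total, 1 was called in involution against lactation, and with only the 2 groups compared 2 were. Over all genes, those settings called 2881 of 16457 and 3759 of 16230. Mice numbered 200 and above alone gave 2 (Alb lower, Serpina6 higher) in involution against lactation and 0 in involution against nulliparous mice, and a combined share difference of -4.87 percentage points, against -3.21 over all mice, for involution minus lactation. The range as a covariate gave 5 in lactation (Alb and Afm higher, Ttr, Ahsg and Serpina6 lower) and 1 in involution against nulliparous mice. Calls over all 16230 genes moved too, with 893 higher and 1655 lower in lactation and 255 in involution against nulliparous mice. The comparison of ranges gave 1 in nulliparous and 3 in lactating mice alone. For comparisons of ranges under the alternatives, the share of all genes called was not counted.

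Leaving out 1 mouse at a time gave 1 call in lactation against nulliparous mice in every case, 2 to 4 in involution against lactation, 1 to 2 in involution against nulliparous mice, 4 to 6 between ranges and 0 for the interaction. Over all genes, these fits called 1058 to 1578, 2841 to 3870 and 242 to 1480 in the stage comparisons. The 2 calls in involution against lactation were Alb and Gc and came without LAC_36, LAC_102 or ID6_209, and the 1 in involution against nulliparous mice was Fetub, without NUL_1 or NUL_13. Where not explained above, the cause was not tested. Of 651 log2 differences under the alternatives, 643 lay within 1 SD of the value reported, and no called one changed sign. Much of this was fixed in advance. Filters, robust moderation and the fit of only 2 groups leave these differences unchanged, and pseudocounts hardly move them. Of 31 alternatives per difference, 19 leave out 1 mouse. The 8 that moved further were Alb and Gc in lactation against nulliparous mice and, in involution against lactation, all genes but Serpina6. The alternatives for the interaction were added after the data were seen, and 0 were called in each. No paired analysis was possible because each mouse belongs to 1 stage and no animal number recurs between stages.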

Other observations

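Genes beside the 7 in family or locus were measured too. Of 14 such neighbours, 4 rose in lactation against nulliparous mice (Afp, Kng1, Serpina1d and Serpina1e) and 2 fell (Serpina7 and Serpina11), by limma-trend. Kng1, the kininogen gene, which belongs to the cystatin superfamily with the fetuins, went from 1335 ± 67.2 TPM (SD, n = 7) to 1752 ± 71.1 (SD, n = 6) and 1542 ± 142 (SD, n = 6) at involution, a log2 difference in lactation of 0.39 ± 0.06 (SE, limma-trend adjusted p = 0.000501). Serpina1d, a member of the alpha-1-antitrypsin cluster, went from 318 ± 89.2 to 818 ± 246 and 341 ± 94.0 TPM, and its log2 difference in lactation was 1.35 ± 0.23 (SE, limma-trend adjusted p = 0.00126). Its copies are nearly identical, so the division of reads between Serpina1 genes is uncertain. Serpina11 had the opposite pattern, 283 ± 112, 127 ± 68.5 and 454 ± 54.8 TPM, with a log2 difference of 2.01 ± 0.33 (SE, limma-trend adjusted p = 0.000242) in involution against lactation. All called genes of this list kept their sign under the 4 other scalings.

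Of 20 secreted protease inhibitors and other hepatocyte plasma proteins, 5 fell in lactation (Serping1, Itih1, Itih2, Mug1 and Proc) and 0 rose (limma-trend, 0 also at an unadjusted p under 0.05), of which 1 fall passed under median-ratio scaling. At involution against lactation 12 rose and 0 fell, 8 of them also under median-ratio scaling. Itih1, an inter-alpha-trypsin inhibitor heavy chain, was at 343 ± 28.6 TPM (SD, n = 6) in lactation and 489 ± 10.03 (SD, n = 6) at involution, with a log2 difference of 0.51 ± 0.06 (SE, limma-trend adjusted p = 1.49e-05) at involution against lactation. The median log2 difference over the list was 0.36 against 0.10 over all genes. Between ranges of animal number 6 of the 20 were higher and 2 lower at 200 and above.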
